A study of Arabidopsis thaliana with 4 samples.

Results

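Chloroplasts and mitochondria make part of their own proteins on ribosomes of bacterial type, which have a small 30S and a large 50S subunit and are distinct from the 40S/60S ribosomes of the cytosol. Most proteins of these organellar ribosomes are encoded in the nucleus, made in the cytosol and imported. Plastid ribosomes translate the plastid-encoded core subunits of the photosystems and the large subunit of RUBISCO, and their loss is lethal to the *Arabidopsis* embryo, as the names of several EMBRYO DEFECTIVE genes record. Mitochondrial ribosomes translate a few subunits of the respiratory chain.

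The organellar ribosomal protein genes described here are the nuclear loci of the array whose annotation text contains "30S ribosomal protein" or "50S ribosomal protein" and neither "40S ribosomal" nor "60S ribosomal". The rule finds 39 of the 25665 loci on the array, read by 40 probes. By the words of the annotation 23 of them are plastid and 2 mitochondrial, and 14 are described only by their likeness to a bacterial or other protein and were left unassigned. The expression of these genes was measured in meristem-enriched tissue (Me) and in whole young leaves (Le) of *clv3-9* plants in the Columbia background, 9 weeks old and raised on soil in short days (8 h light, 16 h dark), with 2 biological replicates and thus 2 one-colour Agilent arrays per tissue. Both tissues carry the same *clv3-9* allele, a point mutation in *CLV3* whose carriers have larger vegetative meristems and more stem cells, so no wildtype tissue enters the comparison. The tissues were separated by manual dissection, which enriches a tissue without purifying it, and it is not given whether a replicate pooled several plants.

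The identity of the samples was checked with marker genes. All 6 meristem markers (*STM*, *CLV3*, *WUS*, *BP*, *KNAT2* and *KNAT6*) were higher in the meristem, by 4.97 to 6.78 on the log2 scale, and all 6 genes of green tissue (*RBCS-1A*, *RBCS-1B*, *LHCB1.3*, *LHCB1.4*, *RCA* and *CA1*) were higher in the leaf, by log2 differences from -1.47 to -9.92. All arrays lie on 1 slide, 60.3% to 63.5% of their gene spots were well above background, and 4 arrays limit the precision of every value given here. Signals are log2 intensities after the arrays had been set to a common 75th percentile, and differences are meristem minus leaf. A gene is called where limma's adjusted p (Benjamini-Hochberg over 23259 loci tested) does not exceed 0.05. In such bulk samples, fewer cells of a type and less RNA per cell cannot be told apart.

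Most plastid ribosomal protein genes were lower in the meristem than in the leaf, whereas calls towards the meristem took a smaller share of the members than of all loci. Of the 39 genes, 20 were called higher in the leaf, against 21.6% of all loci tested, and 7 higher in the meristem, against 27.1% of all loci. When the size of the log2 difference also had to reach 2, the limit used in the study, 14 were higher in the leaf (6.41% of all loci) and 0 higher in the meristem (6.55% of all loci). A further 11 were not called and 1 was not tested, and calls in either direction took 48.6% of all loci. The tissues did not overlap, with both arrays of one above both of the other, for 22 genes towards the leaf (35.5% of all loci) and 13 towards the meristem (43.8%). The quartiles of the differences of all loci were -0.49 and 0.66 with a median of 0.10, whereas the 38 genes tested ranged from -2.96 to 1.26 with a median of -0.83. No gene entered the test through only 1 tissue, since all 38 had a signal above 0 on all 4 arrays. The split between the directions moved with the scaling: with the arrays set to a common median 22 members were called towards the leaf and 3 towards the meristem (29.7% and 17.6% of all loci), and with the spike-in controls 18 and 16 (11.5% and 65.6%). With normexp background correction it was 16 and 0 (5.61% and 2.35%).

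**Figure D1:**
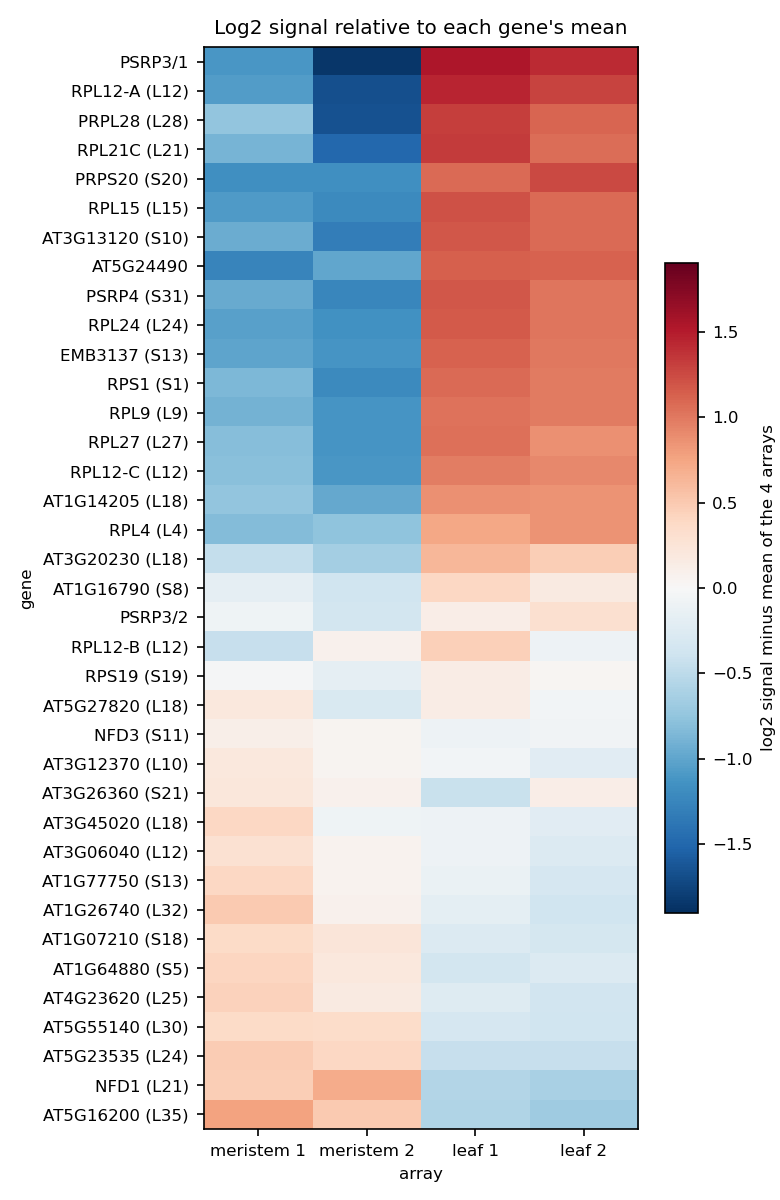
Log2 signal of 37 of the genes tested on the 4 arrays (columns), each gene shown relative to its own mean, ordered by the difference between the tissues. The upper rows, from *PSRP3/1* to *RPL4*, are low on both meristem arrays and high on both leaf arrays, and the lowest rows show the opposite at a smaller size.

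The members differed by annotated organelle. Of the 23 genes with a plastid word in their text, 18 were called towards the leaf and 0 towards the meristem, with a median difference of -2.12. The other 5 were *PSRP3/2*, *RPL12-B*, *NFD3*, AT1G77750 and AT3G06040. *NFD3* and AT1G77750 are annotated on the array as chloroplast S11 and S13, but their products are known as mitochondrial ribosomal proteins, and AT3G06040 is described only as similar to a plastid L12. With *NFD3* and AT1G77750 counted as mitochondrial, and AT3G06040 and AT1G16790 (similar to a *Euglena* S8) as unassigned, which was decided after their values had been seen, the plastid group has 19 genes. Of these 17 were called higher in the leaf, and the 2 others were *PSRP3/2* and *RPL12-B*. The names plastid, mitochondrial and unassigned are used in this second sense from here on.

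**Figure D2:**
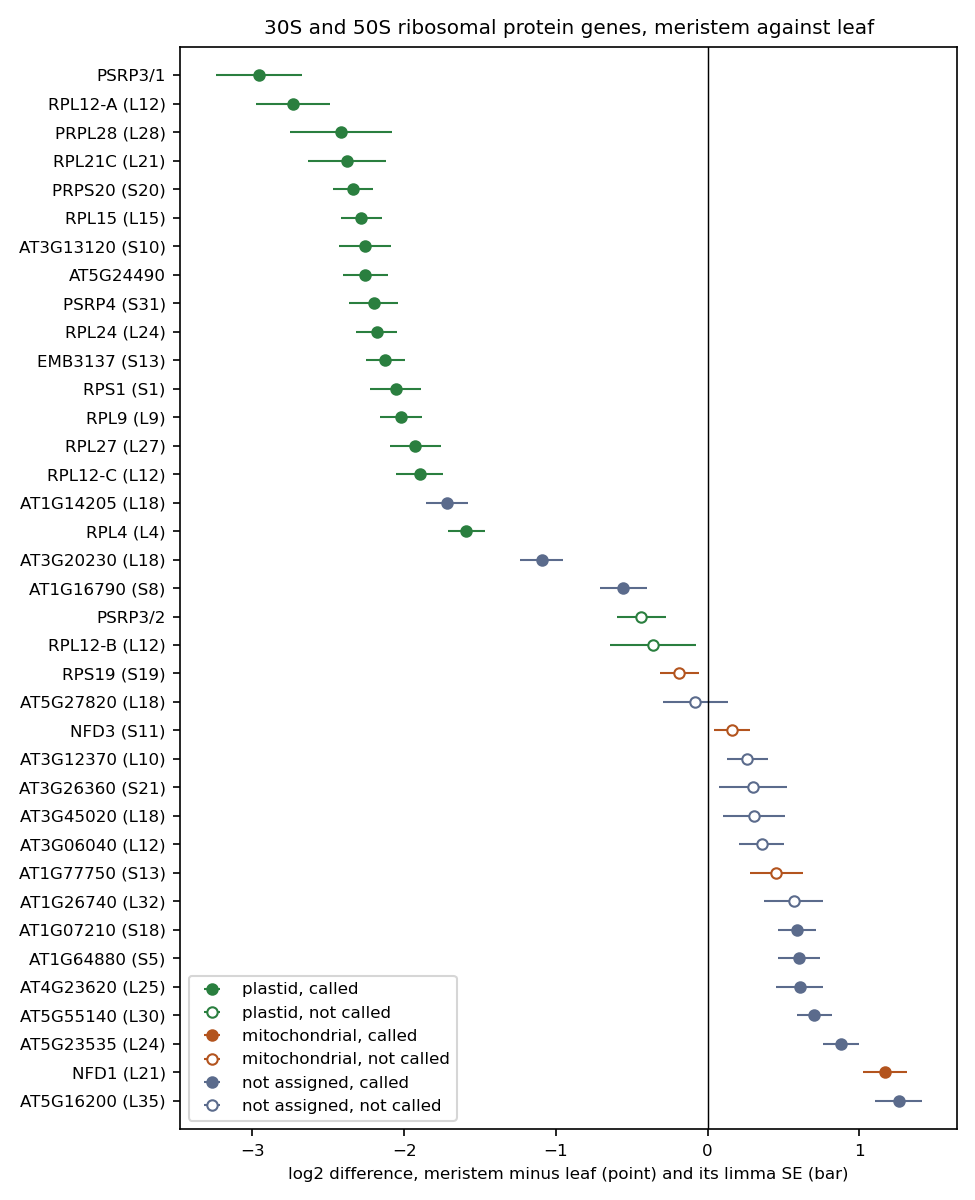
Log2 difference, meristem minus leaf, of 37 of the genes tested (points), with limma's standard error (bars). Filled points are called. The called plastid genes lie between -2.96 and -1.59, and the 7 genes called higher in the meristem lie between 0.59 and 1.26.

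The differences of the 17 plastid genes called had quartiles of -2.38 and -2.06, with a median of -2.25. This narrow range comes in part from the choice, which leaves out genes not called and genes reassigned after their values had been seen. The 23 genes with a plastid word ranged from -2.96 to 0.45, with quartiles of -2.31 and -1.07. On the linear scale the 17 called genes were 3.01-fold (*RPL4*) to 7.77-fold (*PSRP3/1*) higher in the leaf. Both subunits took part, with a median of -2.26 over the 8 called genes of the 30S and of -2.18 over the 9 called genes of the 50S subunit. Each of these genes was well above background on all 4 arrays and had both leaf arrays above both meristem arrays.

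The 30S genes range from one for a protein that binds mRNA to those for proteins named plastid-specific. *RPS1* (AT5G30510) encodes S1, which in *Escherichia coli* holds the mRNA on the 30S subunit; it read 10.46 and 10.11 on the meristem arrays against 12.39 and 12.30 on those of the leaf (-2.06, SE 0.17, adjusted p = 0.00172). For *PRPS20* (AT3G15190), an rRNA-binding protein of the small subunit, the meristem arrays nearly coincided at 12.56 and 12.56, and the leaf arrays gave 14.81 and 14.98 (-2.34, SE 0.13, adjusted p = 0.000816). In both genes the gap between the tissues was many times the spread between replicates.

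S10, part of the head of the small subunit, is encoded by AT3G13120, which was at 10.45 and 10.09 in the meristem and at 12.58 and 12.47 in the leaf (-2.26, SE 0.17, adjusted p = 0.00145). *EMB3137* (AT5G14320) encodes the plastid S13, which in *E. coli* contacts the large subunit, and had 12.93 and 12.81 in the meristem and 15.05 and 14.94 in the leaf (-2.12, SE 0.13, adjusted p = 0.000915). Both genes thus separated the tissues by about the same amount as *RPS1*.

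The plastid-specific ribosomal proteins (PSRPs) were first described as additions to the plastid ribosome of spinach. *PSRP3/1* (AT1G68590) had the largest difference of all members: 10.63 and 9.89 in the meristem and 13.28 and 13.16 in the leaf (-2.96, SE 0.28, adjusted p = 0.00246). The spread of its meristem arrays (SD 0.53, n = 2) exceeded that of its leaf arrays (SD 0.08, n = 2) but was well below the difference between the tissues. *PSRP4* (AT2G38140), a small protein of the 30S subunit, was at 11.29 and 11.00 against 13.43 and 13.26 (-2.20, SE 0.16, adjusted p = 0.00135). AT5G24490 is annotated as similar to spinach PSRP-1, a factor that binds idle ribosomes, and had 10.01 and 10.28 against 12.40 and 12.39 (-2.25, SE 0.15, adjusted p = 0.00107). Unlike *PSRP3/1* and *PSRP4*, it was higher in meristem replicate 2 than in replicate 1.

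Among the 50S genes, *RPL4* (AT1G07320, *EMB2784*), whose product in *E. coli* lines the exit tunnel of the nascent chain, had the smallest of the called plastid differences. Its signal was 12.28 and 12.34 in the meristem and 13.85 and 13.95 in the leaf (-1.59, SE 0.12, adjusted p = 0.00149). *RPL24* (AT5G54600, *SVR8*), which was found as a suppressor of leaf variegation and whose bacterial counterpart starts the assembly of the large subunit, was at 11.24 and 11.11 against 13.44 and 13.28 (-2.18, SE 0.14, adjusted p = 0.000969). *RPL27* (AT5G40950), close to the catalytic centre in *E. coli*, was at 12.83 and 12.51 against 14.69 and 14.50 (-1.93, SE 0.17, adjusted p = 0.00200). *RPL24* thus reached the size limit of 2, whereas *RPL4* and *RPL27* did not.

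*RPL9* (AT3G44890) just reached that limit, at 12.39 and 12.17 in the meristem and 14.33 and 14.28 in the leaf (-2.02, SE 0.14, adjusted p = 0.00117), and *RPL27* just missed it. *RPL21C* (AT1G35680), the plastid L21, had 13.24 and 12.62 against 15.44 and 15.17 (-2.38, SE 0.26, adjusted p = 0.00332). *PRPL28* (AT2G33450) was at 6.56 and 5.66 in the meristem and 8.63 and 8.43 in the leaf (-2.42, SE 0.34, adjusted p = 0.00658), and its meristem replicates had the largest spread of all members (SD 0.64, n = 2). With normexp background correction *PRPL28* was the 1 gene of the 17 that lost its call.

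*RPL15* (AT3G25920) is the 1 member with more than 1 probe, and the probes disagreed. The brighter probe, which stands for the locus, lies at chr3:9492550-9492609 in the coordinates of the array files, whose genome build is not named, and read 13.14 and 13.01 in the meristem against 15.42 and 15.29 in the leaf (-2.28, SE 0.13, adjusted p = 0.000869). The second probe, at chr3:9491593-9491652, read 7.13 and 7.21 in the meristem against 6.51 and 6.45 in the leaf, a difference of 0.68 in the other direction, well above background on all 4 arrays. Which of the probes reports the *RPL15* transcript was not tested, and the difference of this gene rests on the choice of probe. Their mean gave -0.80.

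In both tissues most of these genes were higher in the replicate numbered 1. Of the 19 plastid genes 15 were higher in meristem replicate 1 than in replicate 2, by a median of 0.27, and 16 in leaf replicate 1 than in leaf replicate 2, by a median of 0.11, while the medians over all loci were -0.02 and 0.02. All 6 genes of green tissue were also higher in meristem replicate 1 (median 0.47), and 5 of the 6 meristem markers were lower there (median -0.37). The log2 of the summed signal of the 6 green tissue genes was 16.61 and 16.16 in the meristem and 19.83 and 19.63 in the leaf. In the meristem the highest of them, *RBCS-1A*, read 16.29 and 15.84 and so made up most of the sum, and the lowest, *CA1*, read 3.46 and 3.01. The log2 of the summed signal of the 6 meristem markers was 13.96 and 14.37 in the meristem against 8.07 and 8.19 in the leaf. Of the 19 other members tested, 18 were higher in meristem replicate 1 as well (median 0.21), as were 170 of 227 cytosolic ribosomal protein genes (median 0.14). In leaf replicate 1 these numbers were 16 of 19 (median 0.11) and 169 of 227 (median 0.10). The part of the green tissue signal in the differences of the plastid genes was not tested. Without meristem replicate 1 the median of the 17 called plastid genes was -2.33, without meristem replicate 2 it was -2.07, and the same 17 genes were called in both cases.

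Some ribosomal proteins are encoded by more than 1 member, and these genes were set against each other within each array. The log2 ratio of 2 genes on an array is not altered by adding a constant to an array, as all the scalings but quantile normalization do, but its level carries the difference between the probes, so only its change between the tissues is read. For 11 pairs the ratio was compared; with 2 arrays per tissue an exact two-sided permutation test cannot give a p below 0.333, which each of the 11 pairs reached, so no pair can pass a threshold of 0.05. In all 11 pairs the ratios of the tissues did not overlap, and each change kept its sign with quantile normalization and with normexp. Each pair set a gene called higher in the leaf against one not called so, except *RPL12-A* with *RPL12-C*. No pair was formed with *RPL12-B*, of AT1G14205 with AT3G20230 or of AT5G27820 with AT3G45020, and genes recur across pairs. The separation of the tissues thus follows largely from the choice of pairs, and no share over other pairs of loci was computed.

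**Figure D3:**
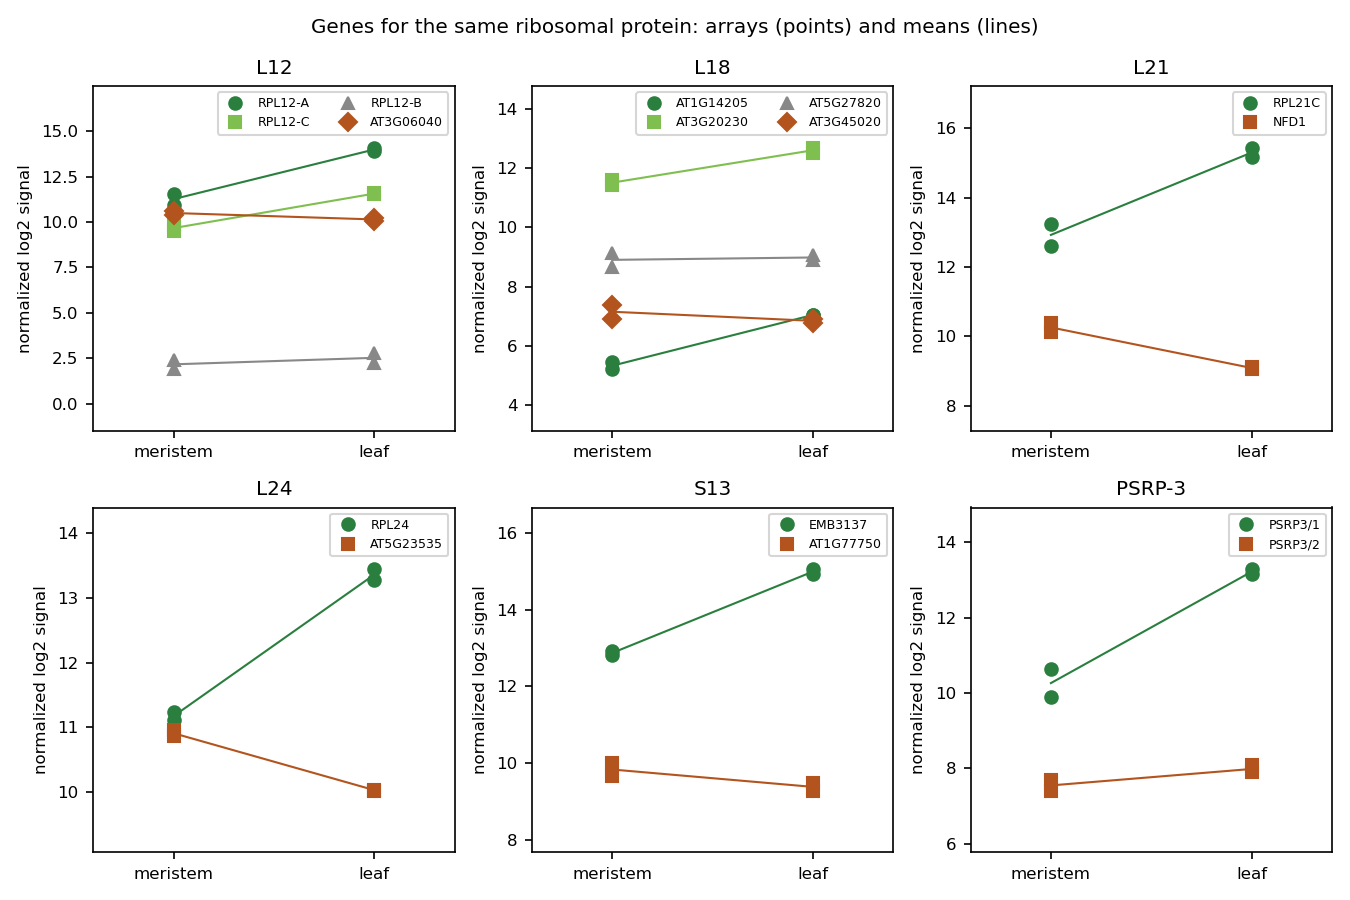
Normalized log2 signal of genes for the same ribosomal protein on the meristem and leaf arrays (points), with lines through the means of the 2 replicates. Levels of different probes cannot be compared; in L21, L24 and S13 the upper gene, the plastid one, rises from meristem to leaf, whereas the other falls or has a small difference that was not called (S13).

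For L21, *RPL21C* encodes the plastid protein and *NFD1* (AT4G30930) the mitochondrial one. *NFD1*, NUCLEAR FUSION DEFECTIVE 1, is known for its need in the fusion of the polar nuclei of the embryo sac. It was at 10.14 and 10.38 in the meristem against 9.12 and 9.06 in the leaf (1.17, SE 0.14, adjusted p = 0.00464), the opposite direction to *RPL21C*. The log2 ratio of *RPL21C* to *NFD1* was 3.10 and 2.24 in the meristem and 6.32 and 6.11 in the leaf, a change of -3.55 (SD 0.61 in the meristem and 0.15 in the leaf, n = 2 each), or 11.7-fold. With quantile normalization this change was -3.16.

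For S13, *EMB3137* encodes the plastid protein and AT1G77750 is the gene whose product is known as mitochondrial. AT1G77750 had 9.99 and 9.67 in the meristem and 9.47 and 9.28 in the leaf (0.45, SE 0.17, adjusted p = 0.0953) and was not called. The ratio of *EMB3137* to AT1G77750 was 2.94 and 3.15 in the meristem and 5.58 and 5.66 in the leaf, a change of -2.58, or 5.97-fold. For L24, the partner of *RPL24* is AT5G23535, a KOW domain protein annotated as similar to L24 of *Bacillus subtilis*. It was at 10.96 and 10.86 in the meristem and 10.04 and 10.03 in the leaf (0.88, SE 0.12, adjusted p = 0.00620), so that the ratio of *RPL24* to AT5G23535 changed from 0.28 and 0.25 to 3.40 and 3.25, by -3.06 or 8.33-fold.

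L12 forms the stalk of the large subunit that recruits translation factors, and it has 4 members. *RPL12-A*, *RPL12-B* and *RPL12-C* (AT3G27830, AT3G27840 and AT3G27850) are close neighbours on chromosome 3; RefSeq places 2 protein-coding genes between *RPL12-A* and *RPL12-B* and 0 between *RPL12-B* and *RPL12-C*. Their probes lie at chr3:10320465-10320524, chr3:10325107-10325166 and chr3:10326826-10326885 in the coordinates of the array files. *RPL12-A* was at 11.56 and 10.95 in the meristem and 14.07 and 13.90 in the leaf (-2.73, SE 0.24, adjusted p = 0.00206), and *RPL12-C* at 9.82 and 9.51 against 11.59 and 11.53 (-1.90, SE 0.16, adjusted p = 0.00171). *RPL12-B* had no array with a signal well above background, so no difference was detectable for it. The annotation names the same protein for all 3 genes, so that a probe may read more than 1 of them, and their values are uncertain to that extent. The ratio of *RPL12-A* to *RPL12-C* changed by -0.83, with 1.74 and 1.44 in the meristem and 2.48 and 2.37 in the leaf. AT3G06040, the L12-like gene elsewhere on the chromosome, was at 10.60 and 10.39 against 10.23 and 10.05 (0.36, SE 0.15, adjusted p = 0.120) and was not called. The ratio of *RPL12-A* to it changed by -3.09 (SD 0.28 in the meristem and 0.0033 in the leaf, n = 2 each). That of *RPL12-C* to it changed by -2.25 (SD 0.06 and 0.08).

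The 2 *PSRP3* genes, both annotated as plastid, also differed. *PSRP3/2* (AT5G15760) was at 7.68 and 7.41 in the meristem and 7.89 and 8.07 in the leaf (-0.44, SE 0.16, adjusted p = 0.0881), against -2.96 for *PSRP3/1*. The ratio of *PSRP3/1* to *PSRP3/2* was 2.96 and 2.48 in the meristem and 5.39 and 5.09 in the leaf, a change of -2.52, or 5.74-fold. With quantile normalization (-0.62) and with a common median (-0.73) *PSRP3/2* was called higher in the leaf. Under the scaling to spike-in controls its difference changed sign (0.33) and was not called.

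L18 binds 5S rRNA in *E. coli*, and 4 unassigned members are annotated as similar to it. AT1G14205 was at 5.44 and 5.21 in the meristem and 7.05 and 7.03 in the leaf (-1.72, SE 0.14, adjusted p = 0.00163), a difference within the range of the plastid genes, and AT3G20230 at 11.60 and 11.42 against 12.69 and 12.53 (-1.09, SE 0.14, adjusted p = 0.00537). The other 2 were not called: AT5G27820 had 9.15 and 8.66 against 9.08 and 8.89 (-0.08, SE 0.21), with overlapping tissues, and AT3G45020 had 7.39 and 6.91 against 6.90 and 6.78 (0.31, SE 0.20). AT1G14205 was not called with normexp (-0.81, adjusted p = 0.483), nor was AT3G20230 with normexp (-1.02, adjusted p = 0.0538), without scaling (-0.68, adjusted p = 0.124) or with the spike-in controls (-0.33, adjusted p = 0.111), all from limma. The ratio of AT1G14205 to AT5G27820 changed by -1.64 (SD 0.19 in the meristem and 0.13 in the leaf, n = 2 each) and that to AT3G45020 by -2.02 (SD 0.18 and 0.07), and with normexp by -0.71 and -0.87. The ratio of AT3G20230 to AT5G27820 changed by -1.01 (SD 0.22 and 0.03) and that to AT3G45020 by -1.40 (SD 0.21 and 0.02). The annotation used does not say in which organelle these proteins work.

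The 7 genes called higher in the meristem were *NFD1* and 6 unassigned genes, by 1.50-fold to 2.39-fold. AT5G16200, with weak likeness to L35, was at 11.02 and 10.75 in the meristem and 9.68 and 9.58 in the leaf (1.26, SE 0.15, adjusted p = 0.00449), 2.39-fold higher in the meristem. AT5G55140, an L30 family gene, was at 9.98 and 9.97 against 9.30 and 9.25 (0.70, SE 0.12, adjusted p = 0.0105). This gene had the smallest standard error of the 7.

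AT4G23620, with weak likeness to L25, was at 10.11 and 9.84 against 9.42 and 9.30 (0.61, SE 0.15, adjusted p = 0.0340). AT1G64880, an S5 family gene, was at 12.41 and 12.20 against 11.66 and 11.75 (0.60, SE 0.14, adjusted p = 0.0261), and AT1G07210, an S18 family gene, at 11.54 and 11.41 against 10.92 and 10.86 (0.59, SE 0.13, adjusted p = 0.0213). S5 and S18 are proteins of the small subunit in bacteria, S5 with a part in the accuracy of decoding in *E. coli*. The calls of these genes depend on the processing and on single arrays: 3 of the 7 genes were called with a common median, 0 with normexp background correction, 4 without meristem replicate 1, 3 without leaf replicate 1 and 3 without leaf replicate 2. *NFD1*, AT5G16200 and AT5G23535 kept the call in each of these cases but normexp. The differences themselves, 0.59 to 1.26 as reported, changed less with normexp (0.52 to 1.15) and with these arrays left out. They were 0.47 to 1.29 without meristem replicate 1, 0.56 to 1.31 without leaf replicate 1 and 0.55 to 1.21 without leaf replicate 2. With the scaling they moved more. They were 0.29 to 0.96 with a common median, 1.00 to 1.67 without scaling and 1.36 to 2.03 with the spike-in controls. The median of all loci was 0.10 here and -0.20 after scaling to the median, so that the size of these differences holds relative to the scaling used.

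The genes with a mitochondrial product were not alike. *RPS19* (AT5G47320), the mitochondrial S19, was at 11.91 and 11.76 in the meristem and 12.07 and 11.97 in the leaf (-0.19, SE 0.13, adjusted p = 0.299). *NFD3* (AT1G31817), known as a mitochondrial S11 and, like *NFD1*, named for the fusion of polar nuclei, was at 10.80 and 10.74 against 10.60 and 10.62 (0.16, SE 0.12, adjusted p = 0.320), with the opposite sign after scaling to the median. Of the 4 mitochondrial genes, *NFD1* alone was called. Their median was 0.31.

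The unassigned genes not yet described had small or undetectable differences. AT1G16790, similar to a *Euglena* plastid S8, was at 8.20 and 7.99 in the meristem and 8.76 and 8.54 in the leaf (-0.56, SE 0.16, adjusted p = 0.0447) and was no longer called when meristem replicate 2 or either leaf replicate was left out, with normexp, without scaling, with the spike-in controls, where its sign turned (0.21), or with the methods' t-test. AT3G12370 (L10 family) differed by 0.26 and AT1G26740 (similar to L32) by 0.57, neither being called. AT1G26740 was called towards the meristem with the replicate block, over loci well above background, without meristem replicate 2, without scaling and with the spike-in controls. AT3G26360, similar to S21, was not well above background anywhere, so no difference was detectable. AT3G06320 (L33 family) was not tested because its spot on 1 meristem array was an outlier; it read 5.99 on meristem array 2 and 5.97 and 5.51 on the leaf arrays.

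Other genes that serve organellar translation were set beside these members. All 9 plastid translation factors tested were called higher in the leaf, against 21.6% of all loci, with a median of -1.91. They ranged from -1.27 for the release factor *HCF109* to -2.47 for the elongation factor G *SCO1*, which was at 11.21 and 11.12 in the meristem and 13.61 and 13.67 in the leaf. The initiation factor 2 *FUG1* was at -1.99 and the elongation factor Ts at -2.24. All 7 genes of plastid ribosome assembly and rRNA processing were also called towards the leaf, with a median of -1.07, though 0 of them were called with normexp, 3 without scaling and 4 without leaf replicate 2. With the spike-in controls the helicases *RH22* and *RH39* had the opposite sign. Among the 7 were *RH22* (-0.48), *RH39* (-0.71) and *RH3* (-0.97, SE 0.27, adjusted p = 0.0460), all RNA helicases, and RNase E (-1.84).

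**Figure D4:**
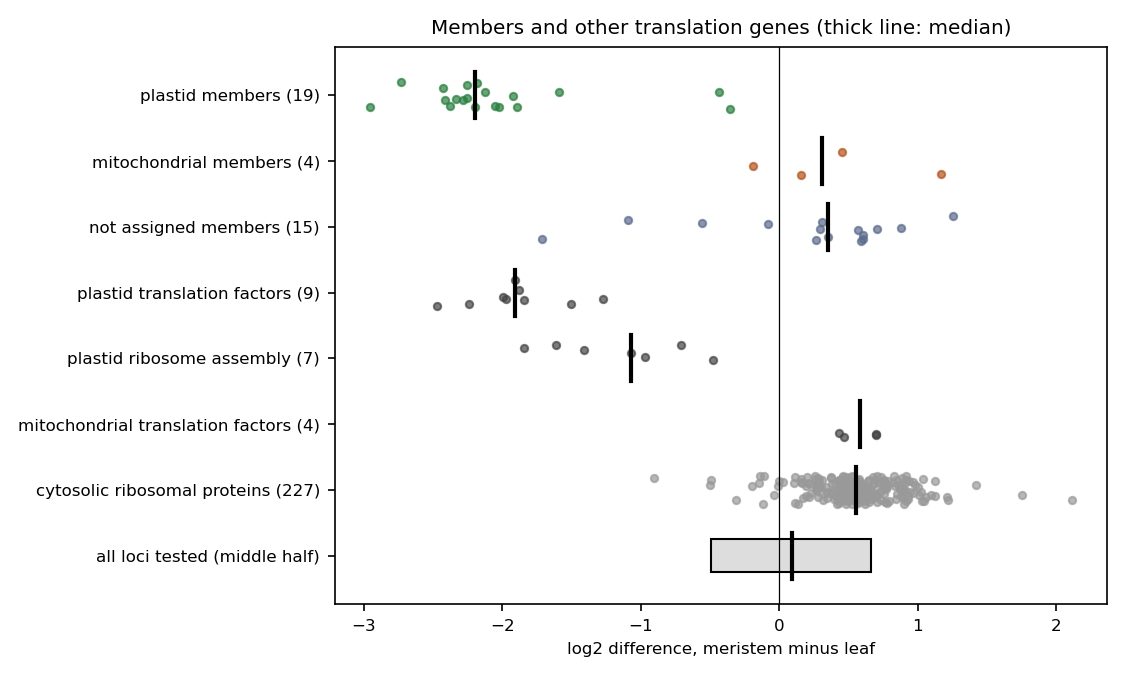
Log2 difference, meristem minus leaf, of the members by organelle and of other genes for translation (points, number of genes in brackets, thick line at the median), with the range between the quartiles of all loci tested as a bar. The plastid translation factors and 17 of the 19 plastid members lie to the left of the bar, with medians of -1.91 and -2.20, and the cytosolic ribosomal proteins have a median of 0.55.

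All 4 mitochondrial translation factors tested (EF-Tu, EF-Ts and 2 forms of EF-G) were called towards the meristem, by 0.43 to 0.70, but 0 of them with a common median, with normexp or without either leaf replicate, and 1 without meristem replicate 1. Their sign stayed positive in each of these cases. Of all loci, 27.1% were called towards the meristem as reported. The cytosolic ribosomal proteins, identified by the words 40S or 60S, had a median of 0.55 over 227 genes tested, of which 129 were called towards the meristem and 1 towards the leaf. The words alone define this list, so organellar proteins annotated with them are counted in it. These 129 are 56.8% of the list, against 27.1% of all loci. With a common median 42 of these genes were called towards the meristem (18.5%, against 17.6% of all loci), with normexp 0 (2.35% of all loci), and without meristem replicate 1 76 (33.5%, against 25.4%). Without leaf replicate 1 or 2 they were 37 and 26 (16.3% and 11.5%, against 16.1% and 17.1%). These medians are descriptions beside a median of 0.10 over all loci tested, and no test was made between the lists.

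The rule leaves out organellar ribosomal proteins whose text lacks the 30S or 50S word. A list of 18 such loci with a plastid or mitochondrial word had 6 genes called towards the leaf and 4 towards the meristem (0 with normexp, 1 with a common median, without meristem replicate 2 or without either leaf replicate, and 12 with the spike-in controls); 1 of the 18, AT5G47890, is annotated as a subunit of respiratory complex I and was not called. Of all loci, 21.6% were called towards the leaf and 27.1% towards the meristem, so the 4 calls towards the meristem are no excess over that share. The 6 called towards the leaf were *PRPL11* (AT1G32990, -2.81), AT5G47190 (L19 family, -2.49), AT1G64510 (S6 family, -2.32), AT1G29070 (L34 family, -2.14), AT5G17870 (related to spinach PSRP-6, -1.58) and AT4G17560 (L19 family, -1.39). The L19 family thus had members in both directions, since AT4G11630 was called higher in the meristem (0.57) and AT5G11750 and AT1G24240 were not called (0.03 and 0.15). Towards the meristem, AT2G07675 and AT2G07679 (1.48 and 0.64) carry the same protein name (S12), so that their probes may read more than 1 gene and their values are uncertain to that extent. *HLP* (AT5G46160), the paralog of the mitochondrial L14 gene *HUELLENLOS*, was at 0.29 (adjusted p = 0.133). RefSeq names 4 loci outside the members as plastid ribosomal proteins, *PRPL11*, *PRPL35*, *PSRP2* and the L1 gene *EMB3126*, a list made after the values had been seen; all 4 were called higher in the leaf, by log2 differences from -2.34 to -2.81. Ribosomal proteins encoded in the organellar genomes were not analysed here.

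The direction of the plastid genes was then followed through the processing. Apart from the second probe of *RPL15*, the 17 genes had negative differences under each of the background corrections, scalings, filters and left-out arrays tried, and all 17 were called except in 2 cases, normexp (16) and the methods' t-test with Benjamini-Hochberg adjustment (13). Their size did depend on the scaling: their median was -2.55 with a common median of the arrays, -1.84 without scaling and -1.49 after scaling to the spike-in controls, while the median of all loci moved to -0.20, 0.51 and 0.86.

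**Figure D5:**
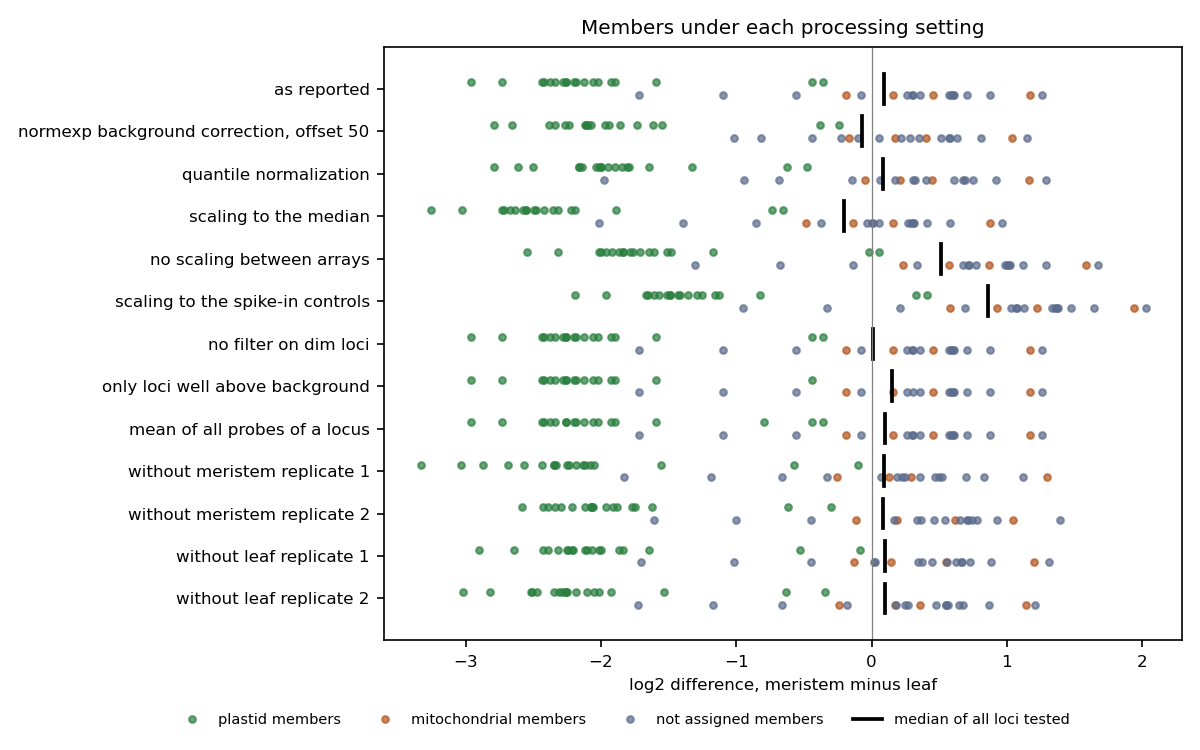
Log2 difference, meristem minus leaf, of each member (points) under the reported processing and its alternatives, with the median of all loci tested as a black line. The 19 plastid members stay to the left of that line in each setting drawn, but their class was set after the values had been seen. Genes with a plastid word that were moved out of it lie to the right of the line (0.10) as reported: *NFD3* (0.16), AT1G77750 (0.45) and AT3G06040 (0.36).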

How the data were processed

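A service provider labelled the RNA of 2 meristem and 2 leaf samples (Cy3, oligo-dT/T7) and ran 1 Agilent array for each. The authors deposited intensities per spot from Agilent Feature Extraction 9.5.3.1: mean signal, local background, background-subtracted signal and processed signal, with flags, which are background-subtracted and detrended within the array and not scaled between arrays. An oligo-dT primer favours polyadenylated nuclear transcripts.

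From these, processed signals were put on the log2 scale and the arrays set to a common 75th percentile (606 to 978 before), outlier spots were left out, and the brightest probe stood for a locus. Loci with a background-subtracted signal above 0 on both arrays of a tissue were tested with limma 3.58.1 in R 4.3.3, without a block. The organelles of 4 members were reassigned after their values had been seen. Alternatives are in the closing section. The fit was also run on simulated data that took their means and spread from the main fit. Nothing says beyond "biological replicates" how far the samples are independent, and p-values measure only the spread between them. The pooled replicate SD was 0.314. All 39 members were found in the RefSeq gene table (TAIR10.1), which gave symbols and neighbours. Gene names of the array are those of its design.

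The members and lists were chosen with earlier results of these data known. The members named are the 8 with the largest difference called towards the leaf, the 7 called towards the meristem, those with a studied role, those sharing a protein name and those against the majority of their class; the rest are named to account for the members. The values of 1 member are not reported here, though it enters the counts and medians. Figures were drawn with matplotlib 3.10.9 and pandas 2.3.3 in Python 3.11.15.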

Additional observations from a re-analysis of the deposited data

How the results depend on the processing

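Each count, median and named gene was recomputed under normexp background correction, 4 other scalings, 2 other filters, the mean of probes, the methods' t-test, a replicate block and with each array left out. The number of members called higher in the leaf, 20 as reported, stayed within 1.5 times under all of these. The number called higher in the meristem, 7 as reported, was 0 with normexp, 3 after scaling to the median, 16 with the spike-in controls, 3 with the methods' t-test (Benjamini-Hochberg), and 3 to 8 with an array left out. By the words of the annotation, the plastid genes called higher in the meristem, 0 as reported, were 1 without scaling, 3 with the spike-in controls and 1 with the methods' t-test unadjusted. These were AT1G77750 without scaling, *NFD3*, AT1G77750 and AT3G06040 with the spike-in controls, and *NFD3* with the t-test. All of them are among the genes reassigned after their values had been seen. The mitochondrial genes called higher in the leaf, 0 as reported, were 1 after scaling to the median, and those called higher in the meristem, 1 as reported, were 0 with normexp and 2 with the spike-in controls. The median of all members was -0.41 without scaling, -0.0575 with the spike-in controls and -1.34 over loci well above background. That of the genes with a plastid word was -1.71 without scaling and -1.36 with the spike-in controls, and that of the 2 with a mitochondrial word was 0.91 and 1.26. Over all loci, 5014 calls were towards the leaf and 6301 towards the meristem. These counts were 1305 and 547 with normexp and 2802 and 2808 with the methods' t-test (Benjamini-Hochberg). With the spike-in controls they were 2675 and 15269. Without scaling 2836 were higher in the leaf, and after scaling to the median 4088 were higher in the meristem. With an array left out, 3736 to 5918 loci were higher in the meristem. The cause of these changes was not tested.

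The sign changed for *NFD3* after scaling to the median (-0.14), for *RPL12-B* without scaling (0.0572) and with the spike-in controls (0.41), and for *PSRP3/2* with the spike-in controls (0.33). It also changed for AT1G16790 with the spike-in controls (0.21), for *RPS19* without scaling (0.23) and with the spike-in controls (0.58, called towards the meristem), for AT3G12370 after scaling to the median (-0.03) and for AT3G26360 with normexp (-0.23). AT5G27820 changed sign without scaling (0.34), with the spike-in controls (0.69), without meristem replicate 2 (0.16) and without leaf replicate 1 (0.02), in a range of -0.33 to 0.16 over the arrays left out. The dimmer probe of *RPL15*, tried after the data had been seen, gave 0.68. Replicate numbers are shared by the tissues but pair no samples by the labels, and the deviations of same-numbered arrays correlated at 0.09. With the replicate block 20 members were called towards the leaf and 8 towards the meristem. Dim signal limits *RPL12-B* and AT3G26360.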
